A study of Mus musculus with 2 samples.

Results

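Translation factors and aminoacyl-tRNA synthetases are the soluble proteins of protein synthesis, and 74 of their genes were measured in tendon cells exposed to fluid shear. The members were taken by gene symbol from the annotation of the array: eukaryotic initiation factors (symbols starting with Eif1 to Eif6, without the Eif2ak kinases), elongation factors (Eef1 and Eef2) and aminoacyl-tRNA synthetases (1 letter followed by ars, with 2 for most mitochondrial enzymes). They were 74 of the 10791 genes with a value, rested on 217 spots, and all had a value on both arrays. The rule uses symbols only.

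Each of the 2 spotted arrays compared tenocytes, the fibroblast-like cells of mouse tendon, with control cells of the same time, 1 array after 6 h and 1 after 12 h. Channel 1 (Cy3) carried the control RNA and channel 2 (Cy5) the RNA of sheared cells. The labels give 50 rpm for the sheared cells of 12 h and pooled cells for both channels at 6 h, and no strain, age or genotype. There was 1 array per time and no dye swap, which leaves nothing to test, and "higher" or "lower" is a statement on these 2 arrays alone. Values are log2 ratios, likely of sheared over control, centred on the median of each array. The base of 2 is assumed. The direction rests on the labels naming Cy5 for the sheared RNA and on the image database to which they link, which stores red over green. If it were the other way, each higher value would be a lower one. Centring took away a median of -0.323 from the 6 h array and of -0.479 from the 12 h array, so a centred value between 0 and these sizes lies below 0 as deposited.

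Protein synthesis begins when eIF2 brings the initiator tRNA to the small ribosomal subunit, eIF3 and eIF4 recruit the capped mRNA, and eIF5 and its partners release the start complex to the large subunit. In elongation, eEF1A delivers the charged tRNAs and is recharged with GTP by its exchange complex, while eEF2 moves the ribosome along. Aminoacyl-tRNA synthetases attach each amino acid to its tRNA, with separate enzymes in cytosol and mitochondria for most amino acids. In stressed cells phosphorylation of eIF2 lowers initiation and favours translation of the transcription factor ATF4, and several cytosolic synthetase genes are among the known targets of ATF4.

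The sequences that follow show where an element of the kind bound by ATF4 occurs in members. They are the 6 places where the letters TGATGNAA, searched on both strands, lies within the 250 bases before to 50 bases after an annotated start site of a member, with the match in capitals and 11 flanking bases on each side. The search was chosen with the values known. Each is written 5′ to 3′ on the strand of the gene, from RefSeq on GRCm38.p6.
Gars: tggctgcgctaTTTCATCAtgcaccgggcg
Iars: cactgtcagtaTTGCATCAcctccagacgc
Tars: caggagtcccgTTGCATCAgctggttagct
Yars: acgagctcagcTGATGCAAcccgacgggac
Eef2k: ctttctgcttgTTTCATCAagctcagcttg
Eif2s3x: ttcgccatcatTTTCATCAggtctatgccg

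The windows lie at chr6:55037960-55037989 on the plus strand for Gars, chr13:49682126-49682155 on the plus strand for Iars, chr15:11399655-11399684 on the minus strand for Tars, chr4:129189895-129189924 on the plus strand for Yars, chr7:120851094-120851123 on the plus strand for Eef2k and chrX:94212729-94212758 on the minus strand for Eif2s3x. In Yars the element reads forward, and in the other 5 genes it is on the opposite strand. The match begins 30 bases before the start site in Gars and 15 bases before it in Tars, and just past the start site in Iars and Yars. Promoters were found for 54 of the 74 members. The element was present in 4 of the 8 cytosolic synthetase genes with a promoter and in 0 of the 10 mitochondrial ones. It was present in 1 of 28 initiation factor genes, and in 3.97% of all 32851 promoters of the table. A match is a run of letters, and binding was not measured. The 4 synthetase genes with the element did not share 1 level. Gars and Yars stood at log2 0.69 and 0.82 at 6 h and at 0.05 and 0.10 at 12 h, Tars at 0.50 and 0.75, and Iars at -0.90 and -0.63. Probes of Iars lay on both sides of 0 on both arrays. Mars1 and Qars, which were high on both arrays, are among the 8 with a promoter and had no match in this window.

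Taken as 1 group, the members read above the typical gene on both arrays, and the roles went apart. Their median was log2 0.50 at 6 h and 0.40 at 12 h, against -0.11 and -0.14 for all genes measured. Over genes with 2 or more probes, the gap was smaller. There the medians were 0.52 and 0.41 for 60 members, against 0.05 and 0.025 for all such genes. At 6 h, 32 of 74 were at least 1.5-fold higher (a log2 ratio of 0.585 or more), where 18.2% of all genes were, and 10 were at least 1.5-fold lower, where 31.3% of all genes were. At 12 h the counts were 29 higher, against 24.4% of all genes, and 13 lower, against 33.1%. As deposited, without centring, they were 16 higher and 15 lower at 6 h and 21 higher and 25 lower at 12 h, and the 12 h median of the members was -0.08. As deposited, 864 of 10346 genes were higher and 4526 lower at 6 h, and 1434 and 5525 of 10731 at 12 h. The share of higher among members past 1.5-fold was therefore 76.2% and 69.0% with centring and 51.6% and 45.7% without. Among all genes past 1.5-fold it was 36.9% and 42.5% with centring and 16.0% and 20.6% without. The gap to all genes does not depend on the centring. At 2-fold, 11 members were higher and 5 lower at 6 h, where 6.20% and 18.8% of all genes were, and 24 were higher and 6 lower at 12 h, where 14.5% and 20.5% were.

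The only error that could be estimated within an array is the spread between different probes of the same gene. A dye effect shared by the probes would not show in it. The pooled SD of this spread over the 60 members with 2 or more probes was 0.605 at 6 h and 0.792 at 12 h. All probes lay on one side of 0 for 37 of these 60 genes at 6 h and for 32 at 12 h. The other 14 members rested on 1 probe and have no such check. Ratios carry no level, so neither the abundance of a transcript nor the presence of tendon markers could be checked. Of 12 listed tendon markers 7 were measured, and Scx, Tnmd and Mkx were not among them. Of these 7, 0 were past 1.5-fold at 6 h and 2 were higher at 12 h. Of 10 measured markers of leukocytes, endothelium, muscle and epithelium, 1 was at least 1.5-fold higher and 2 lower at 6 h, and 3 were higher and 1 lower at 12 h. All genes were higher in 18.2% and lower in 31.3% at 6 h and in 24.4% and 33.1% at 12 h. The share of these 10 that was higher at 12 h, 30.0%, was near that of all genes. These 10 lay between -2.03 and 1.76 at 6 h and between -0.65 and 1.70 at 12 h. Both measured macrophage markers, Cd68 (0.58 and 1.70) and Adgre1 (0.44 and 1.14), were past 1.5-fold at 12 h, each on 1 probe. The part of these cell types in the results was not tested, and fewer cells of a type cannot be told apart from less RNA per cell.

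**Figure D1:**
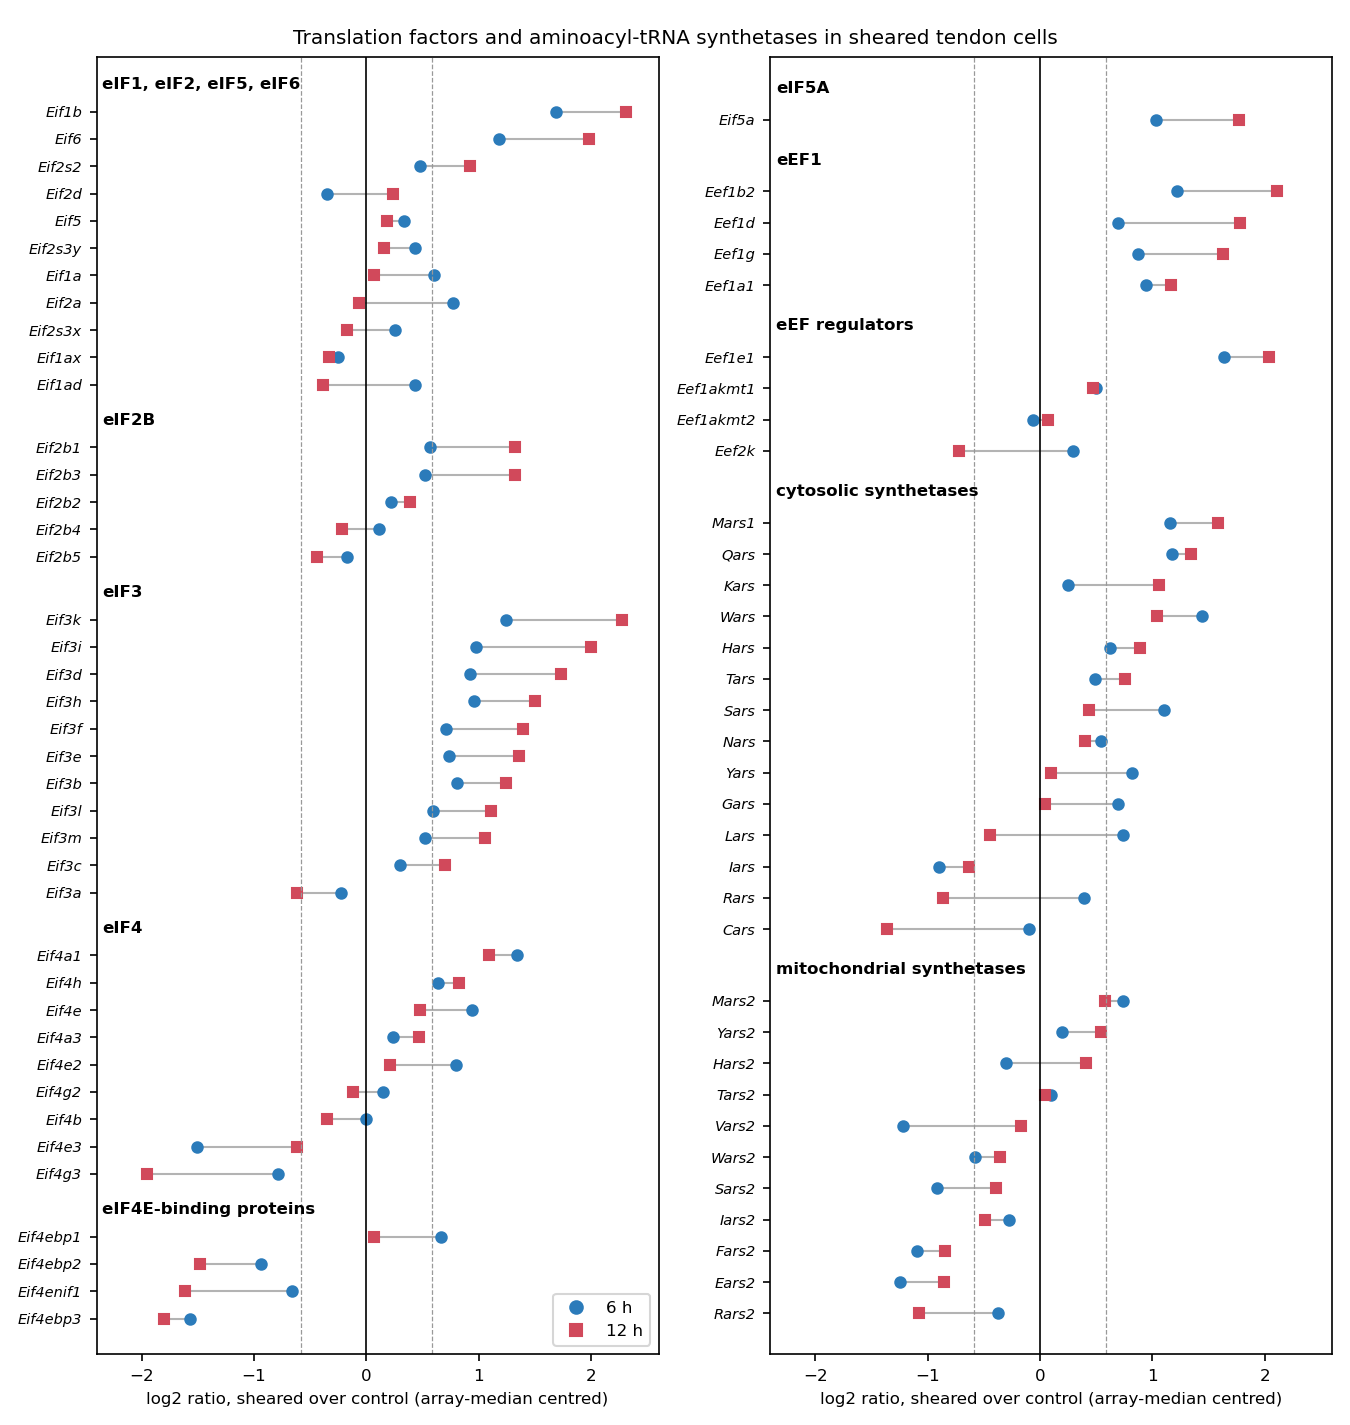
Log2 ratio of sheared over control for each of the 74 genes at 6 h (circles) and 12 h (squares), grouped by role and sorted by the 12 h value. Dashed lines mark 1.5-fold, each point is the median of the gene's probes on 1 array, and 10 of 11 eIF3 genes (9 at 6 h as deposited) and all 4 eEF1 genes lie to the right of 0 while most eIF4E-binding proteins and mitochondrial synthetases lie to the left.

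All 4 measured eEF1 genes were at least 1.5-fold higher on both arrays, against 18.2% of all genes at 6 h and 24.4% at 12 h, with a median of log2 0.91 (1.88-fold) at 6 h and 1.70 (3.26-fold) at 12 h. As deposited, 2 of the 4 were at least 1.5-fold higher at 6 h and all 4 at 12 h. On that scale 864 of 10346 genes were at 6 h and 1434 of 10731 at 12 h. Eef2 lay only on spots with several gene symbols and is not part of this count. With such spots kept, the count for elongation factors was 4 of 5 at 6 h and 5 of 5 at 12 h. Eef1a1, which carries charged tRNAs to the ribosome, stood at 0.94 (probe SD 0.28, 5 probes) at 6 h and 1.17 (probe SD 0.34) at 12 h, with every probe above 0. The exchange factor subunits stood further up at 12 h. Eef1b2 read 1.22 and then 2.11 (probe SD 0.37 and 0.14, 2 probes), and Eef1d read 0.70 and then 1.78 (probe SD 0.09 and 0.08, 3 probes). Eef1g, the structural subunit of the exchange complex, stood at 0.88 and 1.63, but its 12 probes had an SD of 1.13 and 1.39. Of these, 10 lay above 0 on both arrays, between 0.66 and 1.63 at 6 h and between 1.15 and 2.31 at 12 h, and 2 lay far below, down to -2.45 at 6 h and -2.08 at 12 h. The same 2 spots were low on both arrays, and a spot assigned to the wrong gene cannot be told apart from a true difference.

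The kinase and methyltransferases that act on elongation factors did not share this level. Eef1e1, grouped with them by symbol, was high at 1.64 and 2.04 on 1 probe and is given below as a synthetase scaffold. Eef2k, the kinase that inhibits eEF2, stood at 0.30 (probe SD 0.32, 3 probes) at 6 h and -0.72 (probe SD 1.46) at 12 h, where 1 of its 3 probes read 1.79. Its 12 h value was 0.11 with the mean of the probes. The methyltransferase gene Eef1akmt1 stood at 0.50 and 0.47 and Eef1akmt2 at -0.06 and 0.07, each on 1 probe. Eif5a, named as an initiation factor but acting in elongation and termination, stood at 1.04 (probe SD 0.50, 3 probes) and 1.78 (probe SD 0.19). It therefore lay within the range of the eEF1 genes on both arrays.

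Subunits of eIF3, the largest initiation factor and the platform on the small ribosomal subunit, were high with 1 exception. The median of 11 subunits was log2 0.73 (1.66-fold) at 6 h and 1.36 (2.56-fold) at 12 h. At 6 h, 8 subunits passed 1.5-fold upwards and none downwards, and at 12 h 10 did so upwards and 1 downwards (as deposited 4 and 0 at 6 h and 8 and 1 at 12 h). With centring, the share of all genes was 18.2% and 24.4% upwards and 31.3% and 33.1% downwards. As deposited, 864 of 10346 genes passed upwards and 4526 downwards at 6 h, and 1434 and 5525 of 10731 at 12 h. The highest were Eif3k, a small peripheral subunit, at 1.24 and 2.27 (probe SD 0.06 and 0.41, 2 probes), and Eif3i, which sits on the mobile arm with Eif3b, at 0.98 and 2.0 (probe SD 0.14 and 0.20, 3 probes). The 12 h value of Eif3i is 4.01-fold above the control of that time. Eif3d, which can bind the cap itself, stood at 0.92 and 1.73 (probe SD 0.46 and 0.44, 3 probes). Eif3f stood at 0.71 and 1.39 (probe SD 0.16 and 0.78, 4 probes) and Eif3b, the scaffold of the mobile arm, at 0.80 and 1.24 (probe SD 0.71 and 0.80, 4 probes), each with 1 probe below 0 at 12 h. The other subunits that were higher at 12 h, Eif3c, Eif3e, Eif3h, Eif3l and Eif3m, lay between 0.30 and 0.96 at 6 h and between 0.70 and 1.5 at 12 h.

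Eif3a, the largest subunit and a core scaffold of the complex, was the exception. It was one of the best measured members, with 11 probes, and stood at -0.23 (probe SD 0.23) at 6 h and -0.62 (probe SD 0.47) at 12 h. Of its probes, 3 lay above 0 at 6 h and 1 at 12 h, with a range from -0.51 to 0.30 and from -0.94 to 0.64. The next lowest subunit, Eif3c, also part of the core, stood at 0.30 and 0.70, with a probe SD of 0.03 on both arrays. At 12 h the Eif3a median lay below every single probe of the other subunits, whereas at 6 h 1 probe each of Eif3b and Eif3l lay lower.

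**Figure D2:**
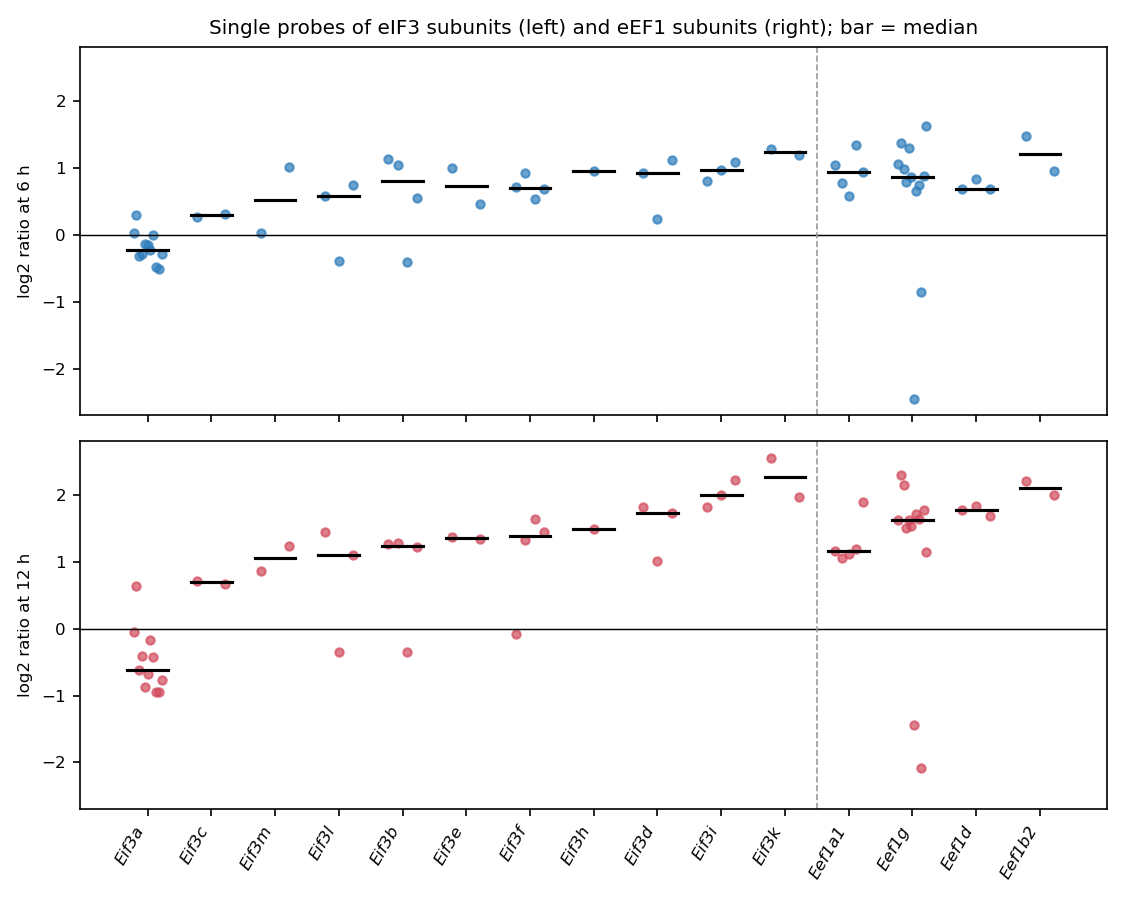
Log2 ratio of every probe of the 11 eIF3 subunits and 4 eEF1 subunits at 6 h (top) and 12 h (bottom), with the median of each gene as a bar. The 11 probes of Eif3a cluster around -0.23 and -0.62, whereas the medians of all other genes shown lie above 0 (except Eif3c at 6 h as deposited), and 2 of the 12 probes of Eef1g lie far below the rest on both arrays.

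Measured factors of the cap-binding complex eIF4F and its partners were split by component, and the scaffold Eif4g1 was not among them. Over the 9 eIF4 genes the median was 0.24 at 6 h and 0.21 at 12 h, both turning negative as deposited (-0.09 and -0.27). Eif4a1, the RNA helicase, stood at 1.34 (probe SD 0.28, 4 probes) and 1.09 (probe SD 0.15), and Eif4h, which stimulates it, at 0.63 and 0.82. Eif4e, the cap-binding protein, had all 7 probes above 0 on both arrays after centring and stood at 0.94 (probe SD 0.20) at 6 h and 0.48 (probe SD 0.86) at 12 h, the latter just below 0 as deposited. Its homologue Eif4e2 stood at 0.79 and 0.21. The scaffold Eif4g3 was the lowest eIF4 gene at 12 h, at -0.78 (probe SD 0.36, 2 probes) and then -1.95 (probe SD 0.06), and the homologue Eif4e3 the lowest at 6 h, at -1.50 (probe SD 0.70, 2 probes) and then -0.62. Eif4g2, a related scaffold that lacks the eIF4E site, stood at 0.15 and -0.12 (6 probes), and Eif4b, the other helicase partner, at 0.00 and -0.35 (4 probes), within the spread of their probes around 0. Eif4a3, which works in the exon junction complex, stood at 0.24 and 0.47 on 1 probe.

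Most proteins that bind eIF4E and keep it from the scaffold were low. Of the 4 genes, 3 were at least 1.5-fold lower on both arrays, against 31.3% and 33.1% of all genes, with a median of -0.80 at 6 h and -1.55 at 12 h. Eif4ebp3 stood at -1.57 and -1.80 and Eif4ebp2 at -0.94 and -1.48, each on 1 probe. Eif4enif1, the transporter that carries eIF4E into the nucleus, stood at -0.67 (probe SD 0.48, 3 probes) and -1.61 (probe SD 0.66), with every probe below 0. Eif4ebp1 differed from them and stood at 0.66 (probe SD 0.09, 3 probes) at 6 h, and at 0.06 (probe SD 0.04) at 12 h.

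A further 11 genes were grouped by their symbols under eIF1, eIF2, eIF5 and eIF6, without eIF2B and eIF5A. Of these, 4 (Eif1a, Eif1b, Eif2a and Eif6) were at least 1.5-fold higher at 6 h, against 18.2% of all genes. At 12 h 3 (Eif1b, Eif2s2 and Eif6) were, against 24.4%. None was 1.5-fold lower on either array, against 31.3% and 33.1%. The median of the 11 genes was 0.43 at 6 h and 0.16 at 12 h, the latter -0.32 as deposited. Eif1b, a close relative of the start-codon factor Eif1, stood at 1.69 and 2.31, with 2 of 3 probes high and the third at -0.22 and -0.49. Eif6, which keeps the large subunit from joining too early, stood at 1.18 (probe SD 0.31, 4 probes) and 1.98 (probe SD 0.17). Its 12 h value is 3.95-fold above the control of that time. Eif2s2, the beta subunit of eIF2, stood at 0.48 and 0.92 (probe SD 0.60 and 0.91, 5 probes). The gamma subunit has an X-linked and a Y-linked copy whose probes can share signal, and they stood at 0.25 and -0.17 for Eif2s3x and at 0.43 and 0.16 for Eif2s3y. Eif5, the GTPase activator of eIF2, stood at 0.33 and 0.19 (6 probes). Eif1a and Eif1ax encode closely related scanning factors. Eif1a stood at 0.60 (probe SD 0.11, 7 probes) and 0.07 (probe SD 0.22), and Eif1ax at -0.25 (probe SD 0.30, 4 probes) and -0.34 (probe SD 0.06). Eif2a, an alternative carrier of initiator tRNA, went from 0.77 (probe SD 0.07, 2 probes) to -0.07 (probe SD 0.20). The lowest was Eif2d, at -0.35, at 6 h and Eif1ad, at -0.38, at 12 h.

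The 5 subunits of eIF2B, the exchange factor that recharges eIF2 and is blocked when eIF2 is phosphorylated, had a median of 0.22 at 6 h and 0.39 at 12 h, below 0 as deposited. None was 1.5-fold higher or lower at 6 h, against 18.2% and 31.3% of all genes. At 12 h 2 of the 5 were higher and none lower, against 24.4% and 33.1%. The 2 were Eif2b1, at 1.32 (probe SD 0.22, 3 probes), and Eif2b3, at 1.32 (probe SD 1.84, 2 probes). The catalytic subunit Eif2b5 was the lowest on both arrays, at -0.17 and -0.44.

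Over all 36 initiation factor genes of these lists (eIF1, eIF2, eIF5 and eIF6, eIF2B, eIF3 and eIF4), the median was 0.52 at 6 h and 0.47 at 12 h. That is 0.39 below the elongation factors at 6 h and 1.23 below them at 12 h. As deposited the initiation median was 0.20 and -0.01. For comparison, 67 cytosolic ribosomal protein genes had a median of 1.17 and 2.22, which is 0.26 and 0.51 above the eEF1 genes and 0.43 and 0.86 above the eIF3 genes.

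**Figure D3:**
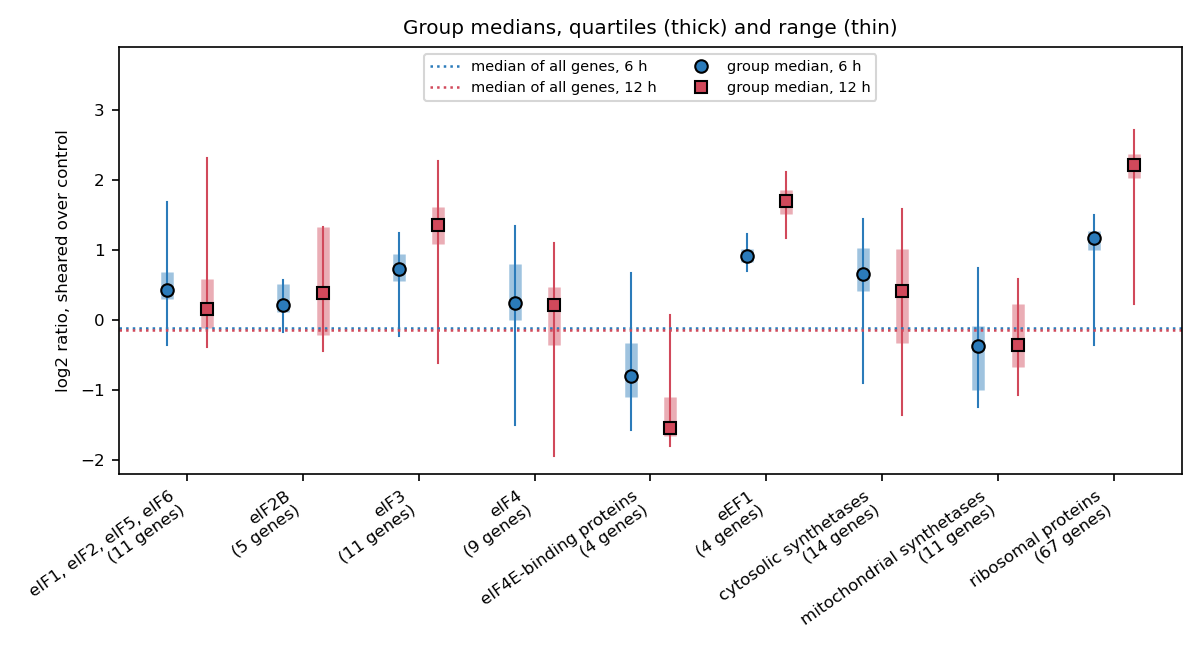
Median (marker), quartiles (thick bar) and range (thin line) of the log2 ratio in each role at 6 h and 12 h, with dotted lines at the median of all genes. The eEF1, eIF3 and ribosomal protein medians are higher at 12 h than at 6 h, the eIF4E-binding proteins lie at -0.80 and -1.55, and the 2 classes of synthetases lie on opposite sides of 0 (at 12 h both below 0 as deposited).

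Synthetases of the cytosol read higher than those of mitochondria. Of 14 cytosolic genes, 8 lay 1.5-fold or more above the control and 1 as far below it at 6 h, with a median of log2 0.66 (1.58-fold), and 6 were higher and 3 lower at 12 h, with a median of 0.42. Of 11 mitochondrial genes, 1 was higher and 4 lower at 6 h, with a median of -0.38, and none was higher and 3 lower at 12 h, with a median of -0.36. All genes were higher in 18.2% and lower in 31.3% at 6 h and in 24.4% and 33.1% at 12 h. The mitochondrial counts of lower genes, 36.4% and 27.3% of the class, were near these shares. The medians of the 2 classes lay 1.03 apart at 6 h and 0.78 apart at 12 h, a gap that centring does not touch. As deposited the cytosolic medians were 0.34 and -0.06 and the mitochondrial ones -0.70 and -0.84.

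For 8 amino acids both enzymes were measured, so that each pair compares like with like. The cytosolic enzyme was above its mitochondrial counterpart in 7 of 8 pairs at 6 h, with a median difference of 0.70, and in 6 of 8 at 12 h, with a median difference of 0.60. The serine pair differed most at 6 h. Sars stood at 1.10 (probe SD 0.64, 7 probes) and Sars2 at -0.92 (probe SD 0.75, 2 probes), and at 12 h they stood at 0.43 (probe SD 1.02) and -0.39 (probe SD 0.39). The tryptophan pair was as far apart, with Wars at 1.44 and 1.05 and Wars2 at -0.58 and -0.36, but the 2 probes of each gene spread over an SD of 1.05 to 2.0. The histidine genes, which are neighbours in the genome, stood at 0.62 and 0.90 for Hars (probe SD 0.16 and 0.10, 3 probes) and at -0.30 and 0.41 for Hars2 (probe SD 0.25 and 0.08, 2 probes). Tars stood at 0.50 and 0.75 (probe SD 0.24 and 0.27, 3 probes) and Tars2 at 0.10 and 0.04 on 1 probe. The isoleucine pair ran the other way on both arrays, with Iars at -0.90 and -0.63 and Iars2 at -0.27 and -0.49. The 3 probes of Iars had an SD of 1.19 and 0.62, with 1 above 0 on each array. At 12 h this pair differed by only -0.14. The tyrosine pair ran the other way at 12 h only, with Yars at 0.10 and Yars2 at 0.55, each on 1 probe. The methionine enzymes were both above 0, with Mars1 at 1.15 and 1.58 on 1 probe and Mars2 at 0.74 and 0.58 (probe SD 0.25 and 2.09, 3 probes). With the mean of its probes, Mars2 stood at -0.50 at 12 h. Of the arginine enzymes, Rars stood at 0.40 and -0.86, but its 2 probes had an SD of 0.93 and 1.84 and lay at -2.16 and 0.44 at 12 h. Rars2 stood at -0.38 and -1.08 (probe SD 0.41 and 0.35, 3 probes).

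**Figure D4:**
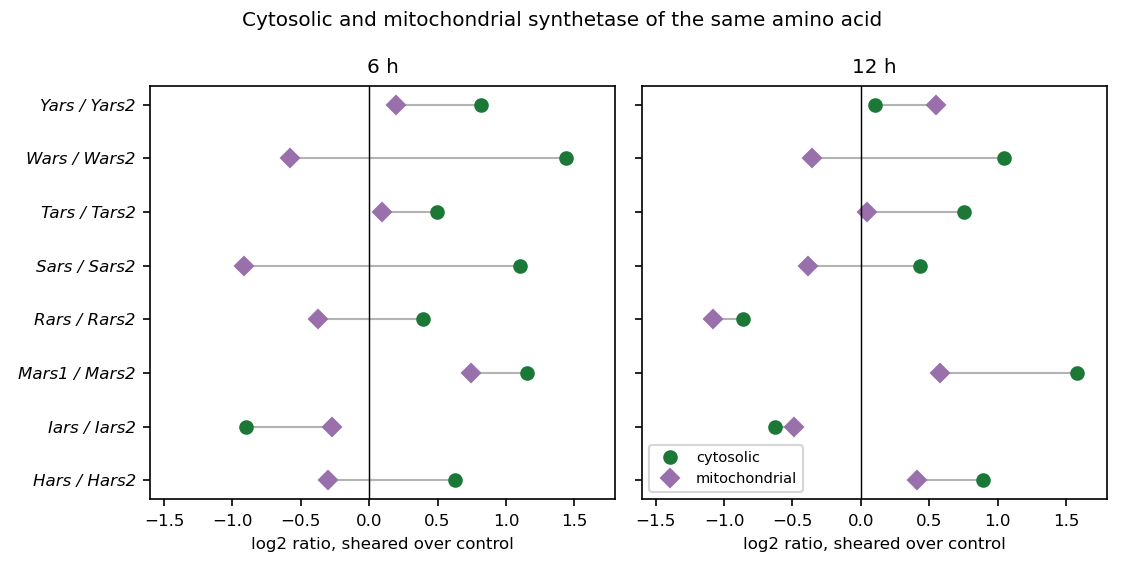
Log2 ratio of the cytosolic (circles) and mitochondrial (diamonds) synthetase of the same amino acid at 6 h (left) and 12 h (right), 1 array each. The circle lies to the right of the diamond in 7 of 8 pairs at 6 h and in 6 of 8 at 12 h.

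Among the remaining synthetases, Qars for glutamine stood at 1.18 and 1.34 (probe SD 0.91 and 0.86, 2 probes), and Kars for lysine, which serves both compartments, at 0.25 and 1.06. Gars for glycine, which also serves both, stood at 0.69 (probe SD 0.26, 4 probes) and 0.05 (probe SD 0.20). Nars for asparagine stood at 0.54 and 0.40 (probe SD 1.34 and 0.66, 3 probes). Cars for cysteine was the lowest cytosolic gene at 12 h, at -0.10 and then -1.36 (probe SD 1.30 and 1.03, 2 probes), and Lars for leucine went from 0.74 to -0.45 on 1 probe. The lowest mitochondrial gene was Ears2 at 6 h, at -1.25 and then -0.86 (probe SD 0.75 and 0.18, 2 probes). Fars2 stood at -1.09 and -0.85 on 1 probe, and Vars2 at -1.22 (2 probes) and -0.17 (3 probes).

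Several cytosolic synthetases are held together in a multi-synthetase complex with scaffold proteins, and these were compared after their values had been seen. The scaffold genes Aimp1, Aimp2 and Eef1e1 stood at 0.77, 0.96 and 1.64 at 6 h and at 1.58, 1.66 and 2.04 at 12 h, the last on 1 probe. The 7 measured enzymes of the complex had a median of 0.54 at 6 h and -0.45 at 12 h. The 12 h median is the value of Lars, which rests on 1 probe. At 12 h Mars1, Qars and Kars were at least 1.5-fold higher, while Iars, Rars and the double enzyme Eprs were at least 1.5-fold lower. That is 3 of 7 each way, where 24.4% of all genes were higher and 33.1% lower. Probes of Iars and of Rars lay on both sides of 0. Eprs, whose symbol lies outside the pattern of the members, stood at 0.54 (probe SD 0.37, 5 probes) and -0.77 (probe SD 0.26), with all 5 probes below 0 at 12 h.

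The 2 arrays differed by role. Between 6 h and 12 h, 18 of the 74 members read at least 1.5-fold higher at 12 h, where 24.9% of all genes did, and 14 read at least 1.5-fold lower, where 17.4% did, so that the members as a whole lay near the background. The median difference was 0.82 for the eEF1 genes and 0.54 for eIF3, with 10 of 11 eIF3 subunits higher at 12 h, against 0.12 for all genes and 1.07 for ribosomal proteins. It was -0.27 for cytosolic synthetases, 6 of which (Cars, Gars, Lars, Rars, Sars and Yars) read at least 1.5-fold lower at 12 h and 1 (Kars) higher. It was 0.25 for mitochondrial synthetases and -0.57 for the eIF4E-binding proteins, all 4 of which were lower at 12 h. The 2 arrays used separate control and sheared RNA, and a difference between times cannot be told apart from a difference between arrays. With 12 h values scaled to the spread of the 6 h array, the eIF3 median at 12 h was 1.08 and that of eEF1 1.35, and the median difference of the eEF1 genes was 0.44. The median difference of cytosolic synthetases was -0.42 as deposited and -0.41 with that scaling, but -0.15 with the mean of probes and -0.14 over genes with 2 or more probes. That of mitochondrial synthetases was 0.09 as deposited.

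Other genes of the pathway, taken from lists of roles, were mixed. Their counts at 1.5-fold read against 18.2% of all genes higher and 31.3% lower at 6 h and 24.4% and 33.1% at 12 h. Mitochondrial translation factors had a median of 0.27 at 6 h and 0.47 at 12 h over 9 of 11 genes measured, with 2 and 4 at least 1.5-fold higher and 0 and 1 lower, and both medians were just below 0 as deposited. Tufm, the mitochondrial counterpart of eEF1A, stood at 1.04 and 1.13, Mtif2 at 0.76 on both arrays (probe SD 1.23 and 1.69) and Mtif3 at 0.03 and -1.27. Release and recycling factors had a median of 0.41 and 0.20 over 7 of 9 genes, with 1 higher and 1 lower on each array (14.3% of the list, below the share of all genes), and the 12 h median was -0.28 as deposited. Dhps, which starts the hypusine modification of eIF5A, stood at 0.78 and 1.12, the recycling factor Abce1 at 0.41 and 0.38 and the selenocysteine factor Eefsec at -1.89 and -0.74 on 1 probe. Of 5 further synthetase and scaffold genes, 3 were higher on each array, and Farsa stood at 0.61 and 0.87. The 72 mitochondrial ribosomal proteins had a median of 0.58 and 0.997, with 35 of 71 higher at 6 h and 51 of 72 at 12 h. The mitochondrial synthetases, with -0.38 and -0.36, lay below them on both arrays.

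Genes that control the factors also lay on both sides, and the same shares of all genes apply. Among the kinases and phosphatase subunits of eIF2 and the factors downstream, 3 of 8 were higher and 2 lower at 6 h and 4 higher and 2 lower at 12 h. Ppp1r15a, which directs dephosphorylation of eIF2, stood at 2.53 and 2.49 (probe SD 1.22 and 0.51, 3 probes), its constitutive relative Ppp1r15b at -1.70 and -1.64 on 1 probe, and the amino acid sensor kinase Eif2ak4 at -1.72 and -1.95 (probe SD 0.28 and 0.33, 2 probes). Atf4, named after its values were seen, stood at 1.36 and 1.44. Among mTOR and cap control genes, 3 of 10 were higher and 4 lower at 6 h and 2 higher and 3 lower at 12 h, shares of 20.0% and 30.0% near those of all genes. The kinase Mtor stood at -1.05 and -1.73 (probe SD 0.40 and 1.45, 2 probes), its partner Rptor at -1.43 and -1.74 and its activator Rheb at 0.96 and 1.33, the last 2 genes on 1 probe each.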

How the data were processed

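The deposited table holds 1 log2 ratio per spot and array, for 42624 spots, of which 39776 had a value at 6 h and 41717 at 12 h. How the authors normalized these log2 values, and the scanner, background correction and any spot filter, are not given in the sources used here. Values run from -8.48 to 5.48, so they are log ratios, and the base of 2 was assumed. Spot intensities were not used here, so the depth is unknown. Each array was centred on its median. Spots with exactly 1 gene symbol in GEO's platform annotation (21701) were used, and 1124 with several symbols and 19799 with none were not. For all 74 members symbol and gene ID were paired in the RefSeq table of GRCm38.p6. A gene's value is the median of its probes, giving 10346 genes at 6 h and 10731 at 12 h. A further 7 genes that match the pattern lay only on spots with several symbols and are not analysed here. No test was possible with 1 array per time, and a threshold of 1.5-fold was used with the percentage of all genes past it given for comparison. Roles were assigned by symbol. Named are the highest and lowest gene of each role on each array, genes with 4 or more probes, pairs of synthetases and, of each other list, the 3 genes with the largest mean absolute log2, and further genes for completeness. The members and lists were chosen with earlier results of these data known. The calculation of medians was checked on simulated data with planted shifts and less noise than these arrays. That check does not test the values or counts reported here. Alternatives were no centring, the mean of probes, genes with 2 or more probes, probes of several symbols kept, print blocks of 900 spots centred, the 12 h array scaled to the median absolute deviation of the 6 h array, 2-fold, and grouping by symbol prefix. Python 3.11.15 with numpy 2.4.6, pandas 2.3.3 and matplotlib 3.10.9 was used.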

Additional observations from a re-analysis of the deposited data

Results flagged for a closer look

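For 11 of the 74 members the 2 arrays lay on opposite sides of 0, which holds for 19.4% of all genes on both arrays and 14.9% of the members. The difference was not tested, and in none were both values past 1.5-fold. In 8 of them the value was above 0 at 6 h and below 0 at 12 h. The largest were Rars (0.40 and then -0.86, a difference of -1.26), Lars (0.74 and -0.45, a difference of -1.18) and Eef2k (0.30 and -0.72, a difference of -1.02). The 2 probes of Rars lay on opposite sides of 0 on both arrays, Lars had 1 probe, and Eef2k stood at 0.11 at 12 h with the mean of its probes. Next were Eif2a with a difference of -0.84, Eif1ad with -0.815, Eif2s3x with -0.42, Eif2b4 with -0.33 and Eif4g2 with -0.26. In 3 the order was the reverse, with a difference of 0.71 for Hars2, 0.59 for Eif2d and 0.13 for Eef1akmt2. As deposited, 4 of the 11 (Rars, Lars, Eif2a and Eif1ad) still lay on opposite sides of 0.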

How the results depend on the processing

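Medians of all members, initiation factors, elongation factors and both classes of synthetases moved by less than the pooled probe SD under every alternative run. That SD, over all genes with 2 or more probes, was 0.738 at 6 h and 0.855 at 12 h. It is the spread of single probes and a wide measure for the median of several genes. Leaving out the centring shifts every median by the array median (-0.323 or -0.479), so this alternative could not exceed it. As deposited, however, the 12 h medians of all members (-0.08), initiation factors (-0.01) and cytosolic synthetases (-0.06) turned negative. The count of members at least 1.5-fold higher at 6 h was 16 as deposited in place of 32, and the count lower at 12 h was 25 in place of 13, because centring moves each array by its median. At 2-fold the counts were 11 higher and 5 lower at 6 h and 6 lower at 12 h. Median differences between the arrays moved more in proportion. That of initiation factors, 0.21, was -0.01 with spots of several symbols kept, and that of all members, 0.18, was 0.02. Of 740 values of single members under alternatives, 649 moved by less than the SD of their probes (the pooled probe SD for the 14 members with 1 probe), 90 moved by more, and 1 counted as reversed. Many of the 649 could not move, so this count does not measure how stable the values are. Scaling the 12 h array leaves every 6 h value as it is, and the mean equals the median for genes with 1 or 2 probes. Keeping spots of several symbols changes only genes that have such spots. The sign turned in 35 of the 740 values, of which 27 were as deposited, 6 with the mean of probes and 2 with print blocks centred. Only 1 of the 35 was past 1.5-fold, Eef2k at 12 h, at 0.11 with the mean of probes, where 1 of its 3 probes lies apart. Mars2 at 12 h, just under 1.5-fold, turned from 0.58 to -0.50 with the mean of probes, and Sars at 12 h from 0.43 to -0.02. Without centring, 8 of the 16 counts of the 4 roles moved by over 1.5 times. No paired analysis was possible because each time point has 1 array, and for the same reason no replicate could be left out. The planned relation to protein length, with its Spearman alternative, was not run, as protein sequences were not used here. Precision is limited by the number of arrays and, for 14 members, by a single probe.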
